A study of Mus musculus with 9 samples.

Results

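Whole sciatic dorsal root ganglia of old mice were compared with those of young mice after sham surgery, without nerve injury. The comparison took 6 of the 9 sequenced libraries, 3 young sham and 3 old sham, and 16206 autosomal genes of the 17601 genes tested. A gene was described when its mean over the 9 libraries was at least 0.2 FPKM, fragments counted per kilobase and adjusted to library depth, and when it lay on an autosome. Each library pooled the ganglia of 2 mice of the strain C57BL/6, with no transgene, deletion or drug given in the labels. The young mice were 8 to 10 weeks old and the old mice 20 to 22 months old, and tissue was taken 24 h after sham surgery. Both groups carried the sham operation, so neither is naive tissue. Another group, old mice 24 h after sciatic nerve injury, entered the fit to share the estimate of the spread, and its levels are given for some genes. The labels do not say whether the pools came from separate cohorts, so the p-values describe how these pools varied, which may be technical.

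A dorsal root ganglion holds the cell bodies of sensory neurons that report touch, temperature, pain and limb position. Satellite glia wrap each cell body, buffer potassium and transmitter around it and are coupled by gap junctions, and Schwann cells ensheath the axons that pass through. Resident macrophages, vessels and a collagenous capsule make up much of the rest. Sensory neurons carry GABA receptors on their cell bodies and central endings, and they keep transcription factors such as Brn3a and Islet1, which direct their formation in the embryo, switched on in the adult. Lysosomes break down the proteins and membranes that long-lived neurons and their glia turn over, and cytosolic chaperones refold proteins that lose their shape.

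In the old ganglia, genes of lysosomes and of a scattered set of ribosomal proteins were called higher. Genes of lipid transport were called in both directions, 3 higher and 1 lower. Transcription factors of sensory neurons, a GABA receptor subunit, the fibrous matrix crosslinker Lox and the chaperones Hsp90aa1, Dnaja1 and Hsph1 were called lower. Of the 16206 autosomal genes, 655 (4.04%) passed an adjusted p under 0.05 (limma, Benjamini-Hochberg over all 17601 genes). Of these, 424 (2.62%) were higher and 231 (1.43%) were lower in old ganglia, 99 of them at least 2-fold (82 higher and 17 lower). The 3 old libraries all lay above the 3 young ones in 18.4% of the autosomal genes and all below in 11.2%. Genes of the immune and blood lists made up 66 of the calls, all higher, and genes of myelin 6, all lower. The other called genes, 358 higher and 225 lower, include the families described below. The median log2 change over autosomal genes was 0.05. The split between directions depended on the scaling of the libraries: 64.7% of the calls were higher with the FPKM as deposited, 35.7% (269 higher, 484 lower) with the library medians made equal and 44.9% (370 higher, 454 lower) after quantile normalization.

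The pools differed in sex as well as in age, and old sham replicate 1 stood between the groups. The summed level of Y-linked genes was 101.1%, 93.7% and 105.2% of its young mean in the young libraries, 67.9% in old sham replicate 1, and 0% and 0.1% in old sham replicates 2 and 3. Xist, which coats the inactive X chromosome of female cells, stood at 0, 0 and 0.02 FPKM in the young and at 1.75, 11.25 and 10.23 FPKM in the old libraries. Age and sex of the pools therefore cannot be told apart in any value below. With the Y-linked share as a covariate, 3 autosomal genes were called (Lgals3, Mirlet7b and Npy). Calls also changed with the libraries in the fit: 282 of the 655 stayed called in the same direction when old sham replicate 1 was left out, and 29 and 17 when replicates 2 and 3 of that group were. Leaving out young sham replicates 1, 2 and 3 kept 30, 591 and 29, and leaving out old injury replicates 1, 2 and 3 kept 154, 227 and 133. For this reason the number of the 9 fits, each without 1 library, that kept a call is given for the leading genes, and 13 genes were kept in all 9. The old injury libraries entered these fits only through the spread, so a lost call need not reflect the values of the library left out. Depth differed little: relative to young sham replicate 1 it lay between 0.8461 and 1.0 in the 6 sham libraries, as read from the worth of 1 fragment in low genes.

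**Figure D1:**
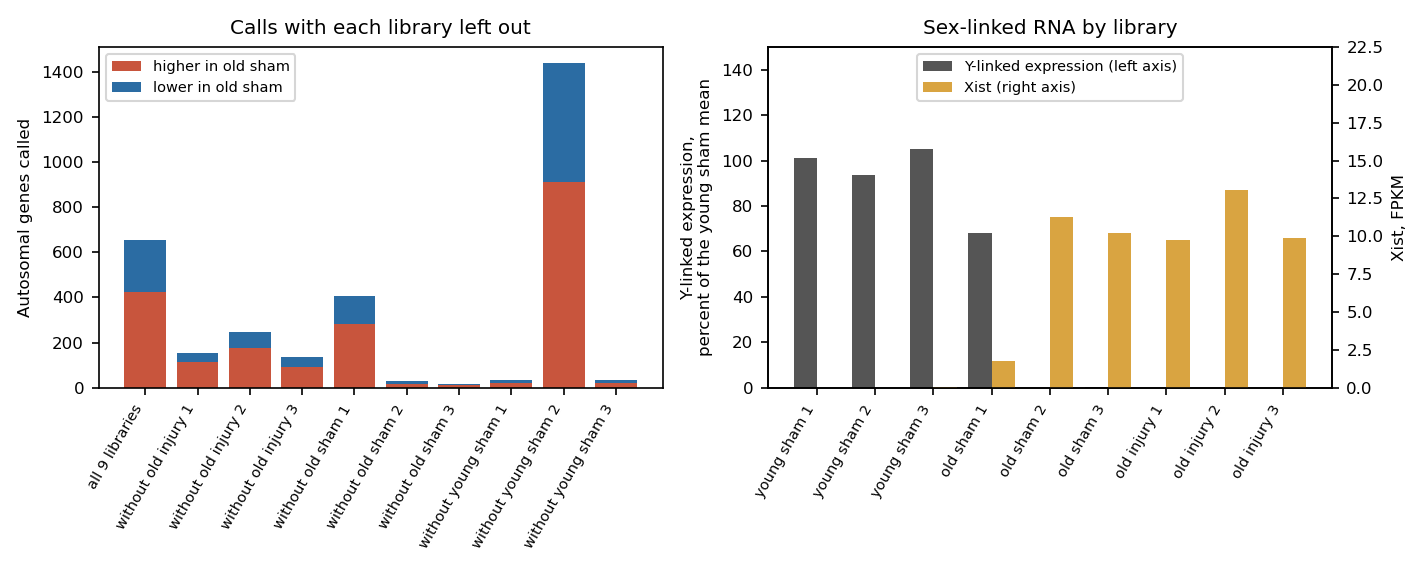
Calls with each library left out and sex-linked RNA by library. The left panel plots the number of autosomal genes called higher (red) and lower (blue), from 655 with all 9 libraries to between 18 and 1439 without 1 library. The right panel plots, for each of the 9 libraries, Y-linked expression in percent of the young sham mean (grey, left axis) and Xist in FPKM (yellow, right axis), and old sham replicate 1 carries both kinds of RNA.

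Markers of the tissue were present in all 6 sham libraries. The 20 sensory neuron markers summed to 8643 to 9333 FPKM in the young and 8384 to 9273 FPKM in the old libraries, and the 15 satellite glia markers to 2436 to 2460 FPKM and 2223 to 2433 FPKM. Markers of macrophages, which include resident cells of the ganglion, and of neutrophils were higher in sum. The 19 macrophage markers summed to 131 to 146 FPKM in the young and 218 to 439 FPKM in the old libraries, and 14 neutrophil markers to 155 to 248 FPKM and 357 to 642 FPKM. All 19 macrophage and all 14 neutrophil markers had a positive log2 change, with 8 and 10 called higher. B and plasma cell markers summed to 53.2 to 55.9 FPKM and 144 to 876 FPKM, with 16 of 16 positive (median log2 change 2.11) and 1 called higher. T cell markers summed to 423 to 436 FPKM and 497 to 512 FPKM, with 18 of 18 positive (median 2.01) and 0 called. Most of each sum was Thy1, at 418, 430 and 427 FPKM in the young and 499, 433 and 495 FPKM in the old libraries. No other T cell marker exceeded 12.9 FPKM (Trbc2) in a sham library. Among the sham libraries each of these others was highest in old sham replicate 2. The 15 markers of myelinating Schwann cells summed to 2954 to 3410 FPKM and 2017 to 2165 FPKM, with 5 called lower and 0 higher. Skeletal muscle markers varied widely within both groups, from 172 to 601 FPKM in the young and 105 to 438 FPKM in the old libraries, with 0 of 13 called, all 13 negative and a median log2 change of -1.04. These sums include Pvalb, which is also among the sensory neuron markers. It was the largest member in each sham library, at 165, 128 and 124 FPKM in the young and 109, 87.1 and 125 FPKM in the old. In whole tissue, fewer cells of a type and less RNA per cell cannot be told apart.

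**Figure D2:**
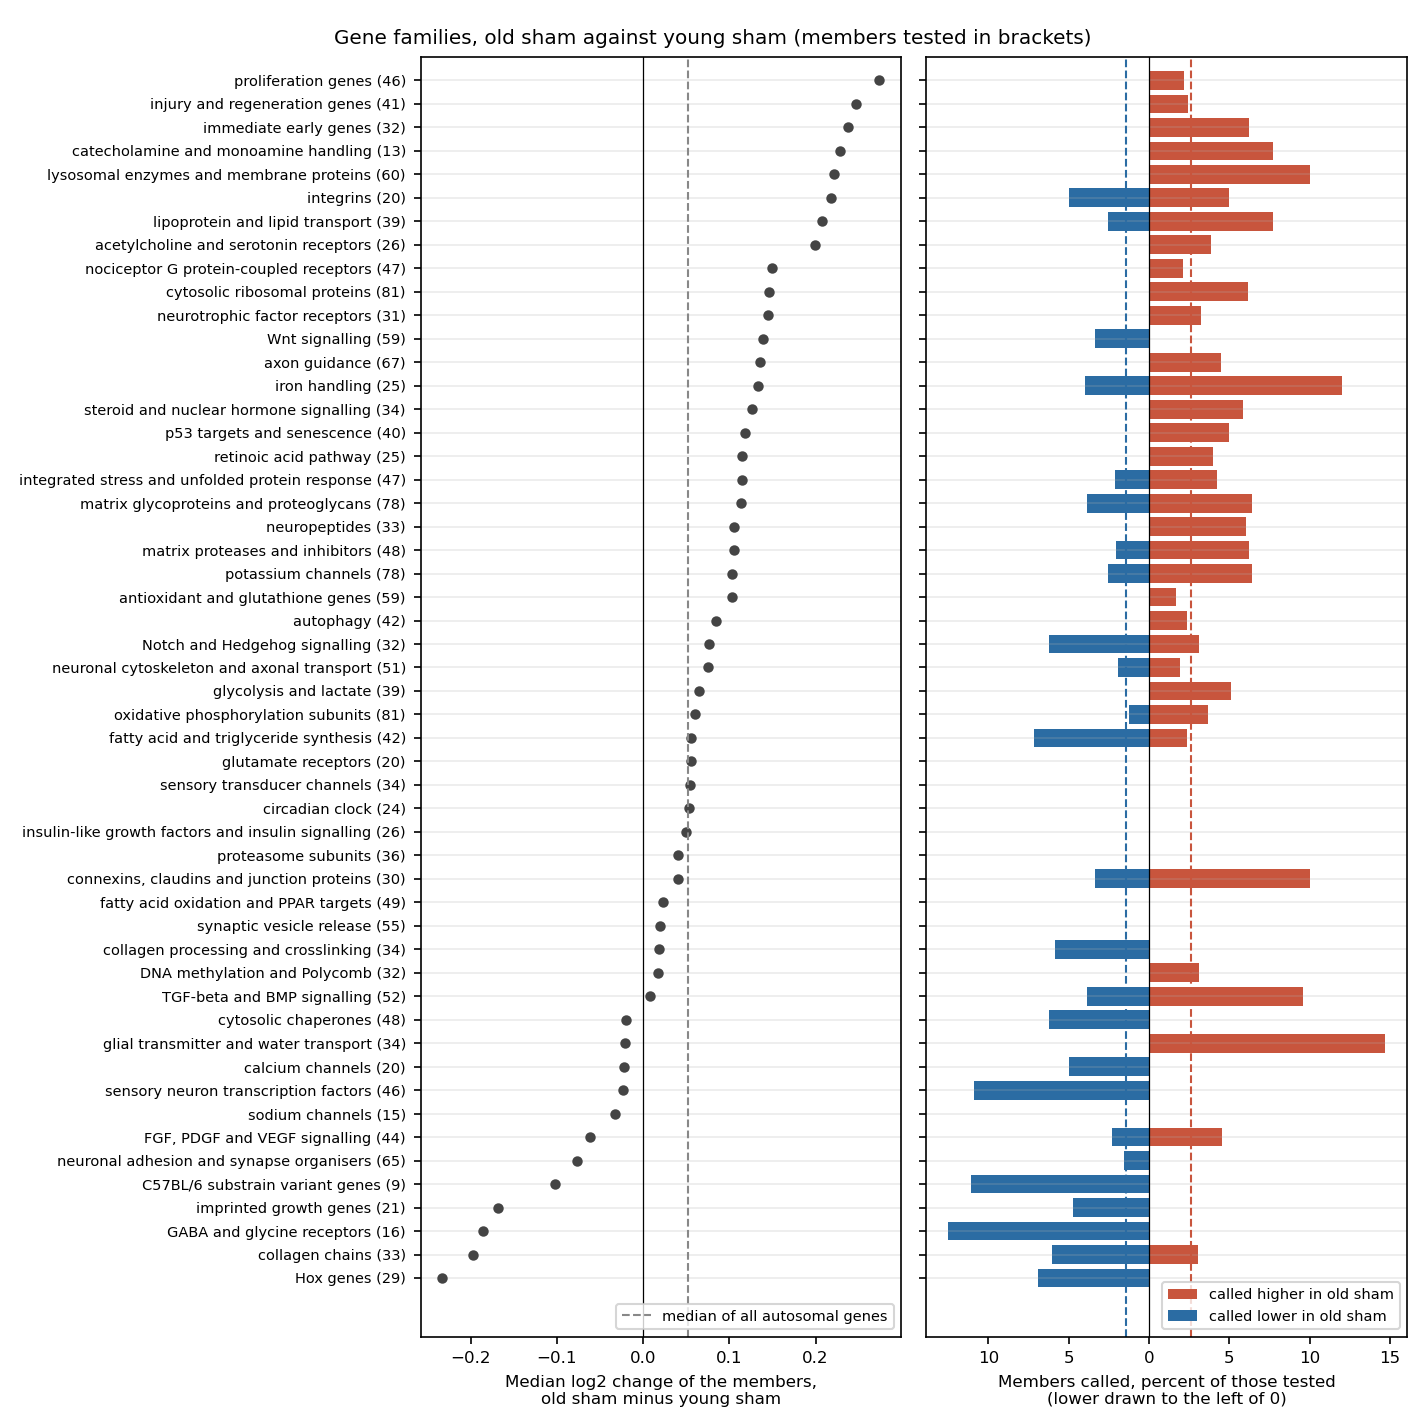
Gene families in old against young sham ganglia. The left panel plots the median log2 change of the tested members of each family, whose number stands in brackets, with the median of all autosomal genes (0.05) dashed. The right panel plots the percent of tested members called higher (red, to the right) and lower (blue, to the left), with the shares over all autosomal genes (2.62% and 1.43%) dashed. Hox genes and collagen chains have the lowest medians, and lysosomal genes have calls on the higher side only.

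The largest rises named by a fixed rule were led by EU599041, a long noncoding RNA (chromosome 7, 43214039 to 43226842, GRCm38). It was listed at 0, 0.0993 and 0 FPKM in the young and stood at 2.3, 3.1 and 2.3 FPKM in the old sham libraries, with 1.91, 1.89 and 2.28 FPKM after injury (adjusted p = 5.54e-04, kept in all 9 fits). Every old library was far above every young one, and no fold is given because the young level was at or near 0. Lgals3, the sugar-binding protein galectin-3 made by phagocytes and by injured neurons (chromosome 14, 47367751 to 47386160), was at 8.86, 9.14 and 8.92 FPKM in the young and 22.2, 19.5 and 19.6 FPKM in the old libraries. The groups were far apart and tight, and Lgals3 rose 2.26-fold (log2 change 1.18, SE 0.069, adjusted p = 5.00e-04), a call kept in all 9 fits and with the Y-linked share as a covariate (log2 change 1.37, adjusted p = 0.0163). In the old injury libraries it was at 23.9, 22.3 and 21.3 FPKM. Tuba1c, an alpha-tubulin chain, went from 2.69, 2.97 and 1.77 FPKM to 8.21, 7.39 and 7.86 FPKM, a 3.14-fold rise without overlap (adjusted p = 0.00881, kept in 8 of 9 fits). Near-identical tubulin genes could share its reads, so its level is uncertain. Gpnmb, a transmembrane glycoprotein of phagocyte lysosomes and pigment cells, was at 1.32, 1.86 and 1.39 FPKM in the young and 3.74, 12.5 and 9.59 FPKM in the old libraries, with old sham replicate 1 the lowest of the old (4.83-fold, adjusted p = 0.0253, kept in 4 of 9). Other rises of this kind were Pglyrp1, a bactericidal protein of neutrophil granules (3.69-fold, kept in 3 of 9), Myo1f, a myosin of white blood cells (2.14-fold, 4 of 9), Nfam1, an immune receptor adaptor (2.08-fold, 2 of 9), and Wfdc17, a secreted protein of macrophages (2.47-fold, 1 of 9). These 4 are genes of neutrophils, macrophages and other white blood cells, whose markers moved with the groups as given above. Their part in these rises was not tested. Tmem221 (4.3-fold, kept in 1 of 9), Scand1 (2.79-fold, 2 of 9) and Phf11b (2.09-fold, 2 of 9) completed the larger rises outside the families described below.

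Among the largest falls, Tyrp1, a melanosome protein of pigment cells (chromosome 4, 80834123 to 80851719), was at 7.29, 4.61 and 7.03 FPKM in the young and 0.769, 0.729 and 0.577 FPKM in the old libraries. No old library came near a young one, and Tyrp1 fell 7.99-fold (log2 change -2.998, SE 0.22, adjusted p = 8.96e-04, kept in all 9 fits). The pigment cell genes Dct, Pmel and Mlana did not exceed 0.264 FPKM in any library and Tyr was listed at 0 in all 9. Of 13 pigment cell markers 5 were tested, and 4 of these were positive. Tyrp1 was called lower, Gpnmb higher, and the other 3 (Kit, Mitf and Slc24a5) were not called. Kit was at 12.6, 11.1 and 10.2 FPKM in the young and 12.4, 15 and 15.6 FPKM in the old libraries. Gdpd3, a phosphodiesterase that makes lysophospholipids (chromosome 7, 126766334 to 126775649), went from 12.9, 6.72 and 6.55 FPKM to 1.97, 1.85 and 2.04 FPKM, with young sham replicate 1 the highest (4.09-fold lower, adjusted p = 0.00881, kept in 7 of 9). Prss35, a secreted protease-like protein, went from 23, 17.6 and 23.9 FPKM to 11.5, 10.4 and 10.4 FPKM, a 1.98-fold fall with a narrow old group (adjusted p = 0.00835, kept in 8 of 9). Calb2, the calcium buffer calretinin found in a subset of large sensory neurons, fell 2.12-fold, from 13, 13.3 and 15.5 FPKM to 8.69, 4.64 and 6.84 FPKM (adjusted p = 0.0331, kept in 2 of 9). Marcks, a membrane-bound regulator of actin (1.79-fold), and Fam181b (1.75-fold) also fell, each kept in 1 of the 9 fits, the one without young sham replicate 2.

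**Figure D3:**
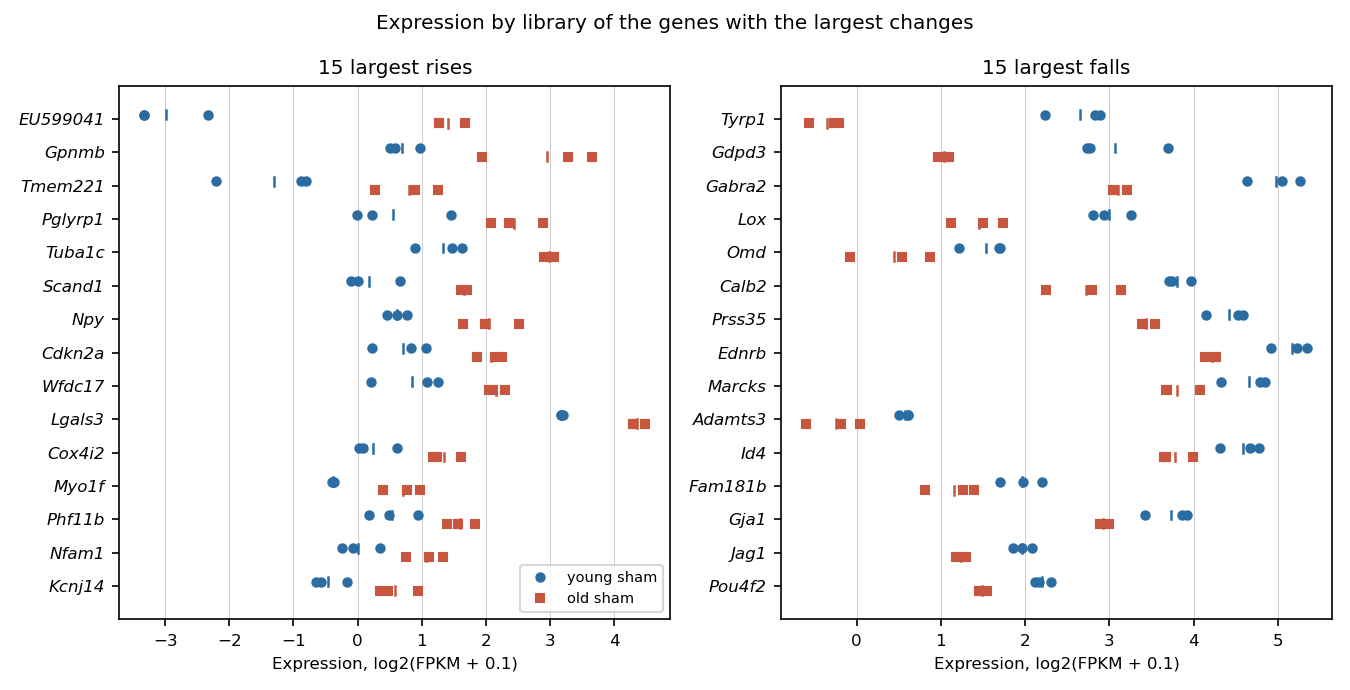
Expression by library of the named genes with the largest rises and falls. Each row is 1 gene, and each point is 1 library at log2(FPKM + 0.1), with circles for the 3 young sham and squares for the 3 old sham libraries. The groups do not overlap in any row, which the choice of these genes required.

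Among receptors for inhibitory transmitters, 2 of 16 members were lower, 0 were higher and 14 did not pass, with a median log2 change of -0.19. Over all autosomal genes 1.43% were called lower and 2.62% higher. Gabra2, a subunit of GABA-A receptors, alpha-2 (chromosome 5, 70957597 to 71095849, minus strand), was at 38.4, 33.1 and 24.6 FPKM in the young and 9.12, 8.17 and 8.21 FPKM in the old sham libraries. Every old library lay below a young range that was itself wide, and the fall was 3.68-fold (log2 change -1.88, SE 0.15, adjusted p = 0.0013, kept in all 9 fits). The old injury libraries were at 8.59, 9.64 and 7.61 FPKM. Gabra2 is also known as a gene whose expression differs between substrains of C57BL/6 mice because of a variant in an intron. The labels name C57BL/6 without a substrain, and which one each age group was is not given in the sources used here. Of 9 measured genes with known substrain differences, 1 (Gabra2) was called. Nnt, whose exons are missing in one substrain, was at 1.9, 1.94 and 2.57 FPKM in the young and 1.77, 2.2 and 1.95 FPKM in the old libraries. Wdfy1 was at 2.74, 2.56 and 8.44 FPKM in the young and 2.55, 3.08 and 2.35 FPKM in the old libraries, so young sham replicate 3 alone was high. For Gabra2, age, sex and any difference of substrain cannot be told apart. Glrb, the beta subunit that anchors glycine receptors, fell 1.35-fold, from 70.5, 60.4 and 71.3 FPKM to 50.4, 53.1 and 45.7 FPKM (adjusted p = 0.0411). That call was lost in 8 of 9 fits, those without any library other than young sham replicate 2. Of 20 glutamate receptor genes 0 were called, with a median log2 change of 0.06.

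Potassium channels set the resting potential and the firing pattern of sensory neurons, and 7 of 78 members were called. Of these 5 were higher and 2 lower, against 2.62% and 1.43% of all autosomal genes. The list's median log2 change was 0.10, and without overlap 16 members lay above and 6 below (18.4% and 11.2% of all genes did). Kcnk1, a 2-pore leak channel, went from 41.1, 38.8 and 39.5 FPKM to 31, 31.8 and 29.1 FPKM (log2 change -0.38, SE 0.053, adjusted p = 0.0167, kept in 6 of 9). The groups did not overlap, and the old injury libraries were at 28.1, 27.3 and 28.7 FPKM. Dpp10, a partner protein that speeds the gating of A-type channels, fell 1.39-fold, from 41.1, 39.4 and 43.2 FPKM to 30.3, 31.6 and 26.9 FPKM. The higher members were the inward rectifiers Kcnj14 (2.07-fold, to at most 1.82 FPKM) and Kcnj4 (1.46-fold), the calcium-activated channel Kcnn4 (1.43-fold), the auxiliary subunit Kcnab2 (1.23-fold) and the calcium sensor Kcnip3 (1.18-fold). Each of these 5 was kept in 1 of the 9 fits, and without old sham replicate 1 the list held 0 higher and 1 lower. With equal library medians 2 were higher and 3 lower. None of the 15 sodium channel genes or the 34 transducer channels was called. Scn10a, a sodium channel of nociceptors, was at 125, 159 and 117 FPKM and 142, 143 and 165 FPKM. Trpv1, the capsaicin receptor, was at 36.6, 38.2 and 28.6 FPKM in the young and 44.3, 47.9 and 43.2 FPKM in the old libraries, without overlap, and did not pass (adjusted p = 0.0551). Asic3, an acid-sensing channel, was at 38, 42.8 and 34 FPKM and 44.8, 51.2 and 59.6 FPKM (adjusted p = 0.0633). Of 20 calcium channel genes 1 was called: Cacnb4, an auxiliary beta subunit, fell 1.35-fold.

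Among peptides, their receptors and amine genes of nociceptors few members were called. In the lists of receptors below that was 1 member each, a share near the 2.62% of all genes called higher. Npy, a peptide that damaged sensory neurons begin to make (chromosome 6, 49822710 to 49829507), was at 1.61, 1.28 and 1.43 FPKM in the young and 5.63, 3.01 and 3.84 FPKM in the old sham libraries. The groups did not overlap, and Npy rose 2.69-fold (log2 change 1.43, SE 0.19, adjusted p = 0.0167, kept in 6 of 9). After injury old ganglia held 13, 11.7 and 12.8 FPKM, above all sham libraries. With the Y-linked share as a covariate its log2 change was 2.25 (adjusted p = 0.0236). Nmb, neuromedin B of itch and pain neurons, rose 1.34-fold, from 67.8, 79.1 and 76.3 FPKM to 112, 93.1 and 94.1 FPKM. These were the 2 higher members of 33 neuropeptides and hormones, with 0 lower. Sst, somatostatin, was at 7.98, 3.36 and 3.89 FPKM in the young and 5.58, 12.3 and 12.1 FPKM in the old libraries, with overlap (adjusted p = 0.127). Its receptor Sstr2 went from 2.9, 2.74 and 2.84 FPKM to 3.92, 4.22 and 4.6 FPKM (1.48-fold, adjusted p = 0.0236, kept in 5 of 9) and was the 1 of 47 nociceptor G protein-coupled receptors called. Th, which makes catecholamines and marks low-threshold C fibres, rose 1.55-fold, from 22.6, 30.2 and 20.4 FPKM to 39.1, 36.9 and 36.2 FPKM, and the serotonin-gated channel Htr3a rose 1.48-fold, from 49.5, 73.2 and 57.6 FPKM to 86.2, 86.9 and 90.6 FPKM. Both were kept in 1 of the 9 fits. Among 31 receptors for neurotrophic factors, Gfra3, the artemin receptor, rose 1.45-fold, from 23.1, 19.8 and 19.7 FPKM to 32.8, 29.7 and 28.1 FPKM (adjusted p = 0.0212, kept in 6 of 9).

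Of 41 genes that peripheral nerve injury is known to induce, Npy was the 1 called, although the list's median log2 change was 0.25. Without old sham replicate 1 that median was 0.06. Atf3, the transcription factor that marks axotomised neurons, was at 23.5, 42.3 and 16.3 FPKM in the young and 95.6, 27.1 and 27.3 FPKM in the old libraries, so old sham replicate 1 alone was high and the other two lay within the young range. Sprr1a, a protein of regrowing axons, was at 2.45, 3.69 and 1.11 FPKM and 8.19, 4.67 and 6.84 FPKM and did not pass (adjusted p = 0.0539).

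Transcription factors that specify sensory neurons were lower in 5 of 46 members and higher in 0, against 1.43% and 2.62% of all autosomal genes. In 12 members all old libraries lay below all young ones (11.2% of all genes did). Pou4f1, encoding Brn3a (chromosome 14, 104461676 to 104467999), went from 55.7, 54.5 and 57.3 FPKM to 42.3, 41.9 and 43.4 FPKM. The old libraries were close together and below every young one (log2 change -0.39, SE 0.056, adjusted p = 0.0169, kept in 5 of 9). Its relative Pou4f2 (Brn3b) fell 1.64-fold, from 4.26, 4.37 and 4.86 FPKM to 2.64, 2.63 and 2.83 FPKM (adjusted p = 0.0167, kept in 5 of 9). Isl1, which acts with Brn3a, was at 26.8, 26 and 28.4 FPKM in the young, 22.6, 20.6 and 21.1 FPKM in the old sham and 17.9, 18 and 17.8 FPKM in the old injury libraries (old against young sham: log2 change -0.33, adjusted p = 0.0284). Esrrg, an orphan receptor of proprioceptive and large neurons, fell 1.37-fold (7.12, 6.49 and 7.36 FPKM to 4.83, 5.4 and 5.0 FPKM), and Etv1, a factor of proprioceptors, 1.42-fold (16.6, 12.8 and 16.9 FPKM to 10.1, 11.1 and 11.2 FPKM). The list's median log2 change was -0.02, with 22 members positive and 24 negative. Without old sham replicate 1, 4 of the 5 stayed called, and without young sham replicate 1 or 3 or old sham replicate 2 or 3, 0 did. The summed level of the sensory neuron markers, of which Pou4f1 and Isl1 are members, overlapped between the groups.

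Hox genes, which keep the positional identity of spinal segments, had 29 members above the filter. Their median log2 change was -0.23, 22 were negative, and in 10 all old libraries lay below all young ones, against 11.2% of all autosomal genes. By cluster the medians were 0.01 over 8 Hoxa genes, -0.21 over 8 Hoxb, -0.28 over 7 Hoxc and -0.25 over 6 Hoxd genes. Genes of a cluster are neighbours on 1 chromosome and their transcripts can overlap, so they are not independent measurements. Hoxb5 went from 5.12, 4.78 and 4.71 FPKM to 3.65, 3.06 and 3.29 FPKM (log2 change -0.54, SE 0.091, adjusted p = 0.0273) and Hoxc8 from 4.49, 4.09 and 5.5 FPKM to 3.24, 3.12 and 3.07 FPKM (log2 change -0.55, SE 0.11, adjusted p = 0.0362). These were the 2 called, lower, with 0 higher. Hoxb5 was kept in 4 of 9 fits and Hoxc8 in 1. Hoxc9 was at 5.37, 4.4 and 5.2 FPKM in the young and 3.52, 3.54 and 3.67 FPKM in the old libraries, also without overlap (adjusted p = 0.0632). Hoxa6 was the 1 member with all old libraries above the young.

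**Figure D4:**
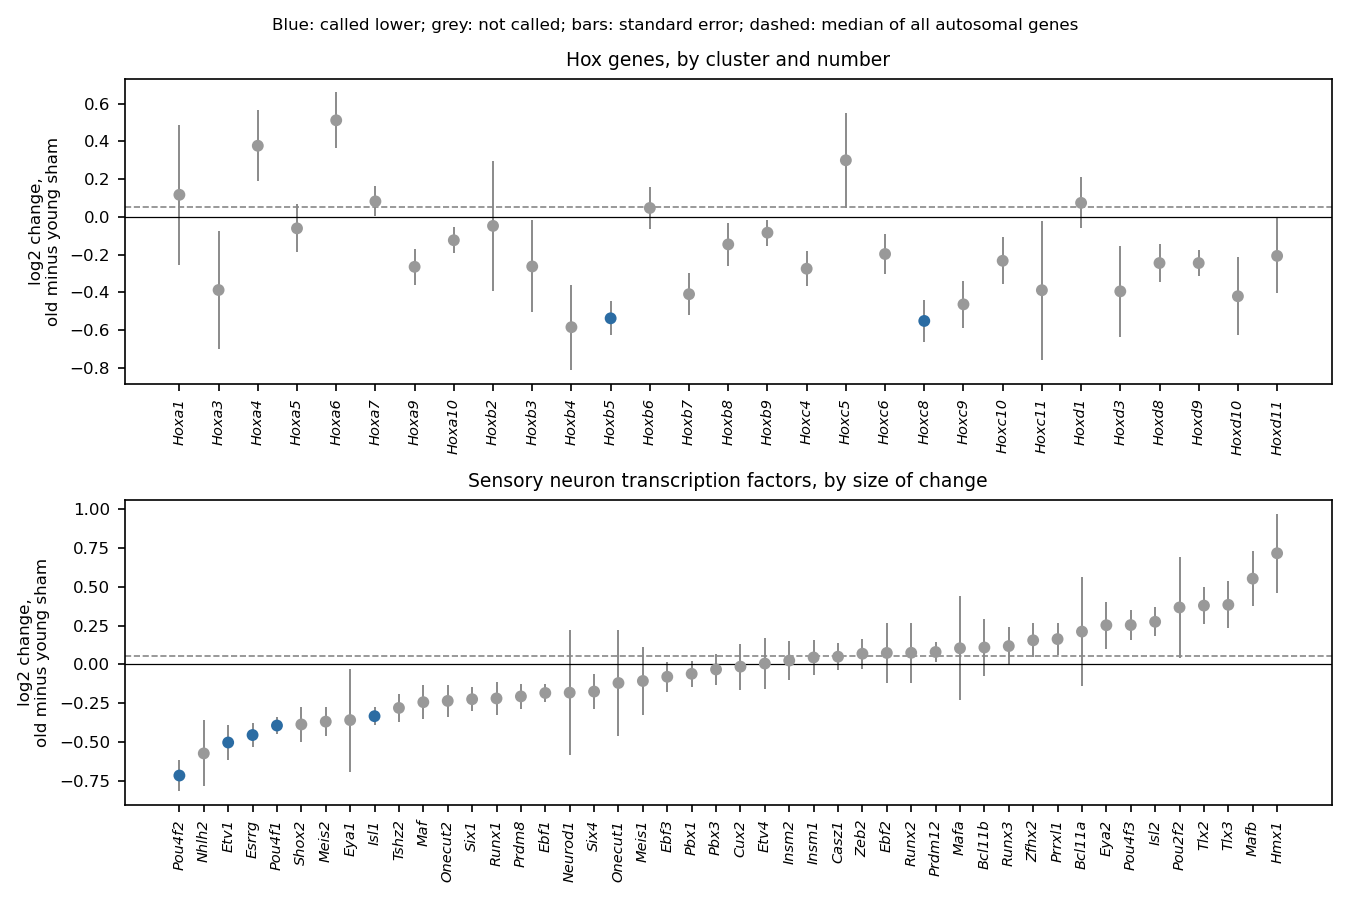
Log2 changes, old minus young sham, of 29 Hox genes in the order of their clusters (upper panel) and of 46 sensory neuron transcription factors in the order of their change (lower panel). Points are limma estimates with bars of 1 standard error, blue where called lower and grey where not called, and the dashed line is the median of all autosomal genes. The Hoxb, Hoxc and Hoxd genes lie mostly below 0, and the 5 called transcription factors lie among the lowest values.

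Structural genes of neurons held few calls. Of 51 cytoskeleton and axonal transport genes 1 was higher, the kinesin light chain Klc2 (1.22-fold), and 1 lower, Dpysl3, a regulator of growth cones (1.21-fold, from 124, 114 and 125 FPKM to 102, 97.6 and 99.7 FPKM). Nefl, the light neurofilament chain, was at 1256, 1168 and 1302 FPKM in the young and 962, 919 and 1103 FPKM in the old libraries, without overlap, and did not pass (adjusted p = 0.0617). Of 55 genes of synaptic vesicle release 0 were called. Snap25, a fusion protein of that list, was at 288, 280.2 and 297 FPKM and 260.3, 236 and 235 FPKM, also without overlap (adjusted p = 0.0583). Among 65 neuronal adhesion genes Cntn4, a contactin, was the 1 called and fell 1.58-fold, while 1.43% of all genes were called lower. In 16 of the 65 all old libraries lay below all young ones, against 11.2% of all genes. Among 67 axon guidance genes 3 were higher, against 2.62% of all genes. They were Ntn4, a netrin of basement membranes that perineurial cells also make (1.72-fold), and the semaphorin receptors Plxnb2 (1.33-fold) and Plxnd1 (1.25-fold).

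Markers of satellite glia were called in both directions, and calls among genes of glial transport were all higher. Ednrb, the endothelin receptor of satellite glia, was at 37.5, 30.2 and 40.6 FPKM in the young and 19, 17.4 and 19.1 FPKM in the old libraries (1.93-fold lower, adjusted p = 0.00762, kept in all 9 fits). Entpd2, an enzyme on their surface that degrades ATP, rose 1.7-fold, from 4.06, 4.88 and 4.5 FPKM to 8.14, 7.46 and 7.37 FPKM, and was also kept in all 9. Of the 15 markers of these cells, Gja1, Hmgcs1 and Sox2 were the other falls and Gfap the other rise, so 4 were lower and 2 higher. Sox2, a factor of glial progenitors, went from 6.27, 6.55 and 6.45 FPKM to 4.96, 5.47 and 5.03 FPKM (log2 change -0.31) and was kept in 0 of 9 fits. Of 34 genes of glial transmitter and water transport 5 were higher and 0 lower, against 2.62% and 1.43% of all autosomal genes. The list's median log2 change was -0.02, with 16 members positive and 18 negative, so the list as a whole was not shifted upward. Slc1a2, the glutamate transporter GLT-1, went from 0.468, 0.392 and 0.382 FPKM to 1.11, 1.04 and 1.02 FPKM (2.25-fold, adjusted p = 0.0167, kept in 5 of 9), so it stayed a low gene. Fxyd6, a regulator of the sodium pump, rose 1.57-fold, from 44.5, 56 and 40.9 FPKM to 78.7, 72.8 and 68.5 FPKM. Fxyd1, its relative (1.33-fold), the water channel Aqp1 (1.24-fold) and the GABA transporter Slc6a11 (1.43-fold) were the other rises. With equal library medians 2 of the list were higher and 1 lower, and without old sham replicate 1 there were 3 higher.

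Of 30 junction genes 3 were called higher and 1 lower, against 2.62% and 1.43% of all autosomal genes. Their median log2 change was 0.04, against 0.05 over all autosomal genes. Gja1, the connexin of glia and fibroblasts, went from 14.4, 10.6 and 15.1 FPKM to 7.33, 7.33 and 7.9 FPKM (1.75-fold lower, adjusted p = 0.0222, kept in 5 of 9). Gja4, a connexin of arteries, rose 1.69-fold (1.4, 1.86 and 1.49 FPKM to 2.4, 3.19 and 2.63 FPKM) and Cldn5, the claudin that seals endothelium, 1.3-fold (12.2, 11.7 and 10.8 FPKM to 16.8, 15.2 and 13.3 FPKM). Cldn9, another claudin, rose 1.87-fold. Gja4 was kept in 2 of 9 fits, Cldn9 in 1 and Cldn5 in 0. The 18 endothelial markers summed to 95.5 to 106 FPKM in the young and 105 to 109 FPKM in the old libraries. Rgs5, a pericyte gene, went from 57.9, 55.3 and 61 FPKM to 43.9, 44.5 and 36 FPKM (log2 change -0.49, adjusted p = 0.0331), the 1 of 14 pericyte and smooth muscle markers called.

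Among collagen chains and the enzymes that process them, 4 of the 5 calls were lower. Over all autosomal genes 2.62% were called higher and 1.43% lower. The crosslinker Lox, which oxidises lysines of collagen and elastin (chromosome 18, 52516067 to 52529867, minus strand), was at 9.45, 7.56 and 6.87 FPKM in the young and 2.73, 3.22 and 2.08 FPKM in the old sham libraries. The groups were well apart, and Lox fell 2.92-fold (log2 change -1.54, SE 0.19, adjusted p = 0.0112, kept in 7 of 9). In the old injury libraries it was at 3.98, 4.03 and 5.65 FPKM. Adamts3, which trims procollagen, fell 1.77-fold, from 1.43, 1.32 and 1.43 FPKM to 0.78, 0.561 and 0.932 FPKM, and these were the 2 of 34 processing genes called. Of 33 collagen chains 24 had a negative log2 change (median -0.20), 2 were lower and 1 higher. Col28a1, a chain of nerve sheaths, fell 1.45-fold (27.4, 22.1 and 29.7 FPKM to 16.8, 19.6 and 18 FPKM) and Col26a1 1.95-fold (1.06, 0.936 and 0.766 FPKM to 0.332, 0.46 and 0.478 FPKM). Col3a1, a main fibrillar chain, was at 15.4, 14.6 and 17.2 FPKM and 7.79, 9.7 and 9.65 FPKM and did not pass (adjusted p = 0.0528). Col18a1, a basement membrane chain, rose 1.72-fold, from 3.51, 3.47 and 3.74 FPKM to 4.9, 6.93 and 7.04 FPKM (adjusted p = 0.0287). Without old sham replicate 1 the collagen median was -0.06, with 1 higher and 0 lower. The fibroblast markers summed to 352 to 402 FPKM in the young and 351 to 407 FPKM in the old libraries. Most of each sum was Dcn, at 238, 214 and 251 FPKM in the young and 270, 259 and 207 FPKM in the old libraries. Of the 16 fibroblast markers 12 were negative and 4 positive (median log2 change -0.10), and 0 were called.

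Other matrix genes went both ways: of 78 glycoproteins and proteoglycans 5 were higher and 3 lower, against 2.62% and 1.43% of all autosomal genes. Gpc1, a heparan sulfate proteoglycan of neurons, rose 1.34-fold (36.5, 41.5 and 36 FPKM to 51.2, 49.9 and 51.6 FPKM), and Vwa1, a basement membrane protein of peripheral nerve, 1.41-fold (19.1, 17.1 and 17.3 FPKM to 25.6, 26.2 and 23.5 FPKM), each kept in 5 of 9 fits. Matn4 (1.48-fold), Efemp1, a fibulin (1.49-fold), and Ecm1 (1.62-fold) were the other rises. Chad, a protein of tendon and cartilage, fell 2.7-fold to 0.509, 0.213 and 0.324 FPKM, Omd, a keratan sulfate proteoglycan, 2.13-fold, and Hapln1, which links hyaluronan to proteoglycans, 1.6-fold. With equal medians 3 of the list were higher and 6 lower. Among 48 proteases and inhibitors Mmp9 rose 2.31-fold (1.22, 1.25 and 1.47 FPKM to 2.33, 3.19 and 4.19 FPKM), Mmp8 2.19-fold (1.42, 1.25 and 1.9 FPKM to 2.38, 4.09 and 4.02 FPKM) and Adam15 1.34-fold, while the aggrecan-cutting Adamts5 fell 1.28-fold. Mmp8 and Mmp9 are stored in neutrophil granules and moved beside the neutrophil markers given above. The part of those cells was not tested. The integrin Itgb5 rose 1.43-fold (10.0, 8.83 and 9.54 FPKM to 13.3, 13.8 and 13.6 FPKM, adjusted p = 0.0167, kept in 6 of 9) and Itgb3 fell 1.45-fold (3.92, 3.6 and 4.46 FPKM to 2.45, 3.05 and 2.67 FPKM), the 2 called of 20.

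In the TGF-beta and BMP pathway 5 of 52 genes were higher and 2 lower, against 2.62% and 1.43% of all autosomal genes. The median of the list was 0.01, against 0.05 over all autosomal genes. Among ligands, Bmp6, also known from iron control and nerve, rose 1.88-fold, from 2.3, 2.04 and 1.9 FPKM to 4.25, 3.83 and 3.83 FPKM (log2 change 0.91, SE 0.13, adjusted p = 0.0169, kept in 5 of 9). The groups did not overlap, and the old injury libraries held 4.11, 3.72 and 5.19 FPKM. Gdf7, a related ligand, was near the floor in young ganglia (0.162, 0.0572 and 0.127 FPKM) and at 0.662, 0.637 and 0.662 FPKM in old ones (adjusted p = 0.0297). Tgfb1, made by many cells including macrophages, rose 1.86-fold and Nbl1, a secreted BMP antagonist, 1.25-fold. The activin receptor Acvr2a fell 1.43-fold. Of the pathway's target genes Id3 rose 1.41-fold (28.8, 33.2 and 36.4 FPKM to 48, 46.9 and 43.6 FPKM) and Id4 fell 1.76-fold (25.4, 19.7 and 27.4 FPKM to 12.6, 15.9 and 12.5 FPKM), so these 2 inhibitors of differentiation moved in opposite directions. Both were kept in 1 of the 9 fits.

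In the Notch and Hedgehog lists 2 of 32 genes were lower and 1 higher, against 1.43% and 2.62% of all autosomal genes. Jag1, a Notch ligand, was at 4.14, 3.52 and 3.81 FPKM in the young and 2.17, 2.23 and 2.36 FPKM in the old libraries, a 1.66-fold fall without overlap (adjusted p = 0.0167, kept in 5 of 9). Hey2, a target gene of Notch, fell 1.39-fold, from 21.1, 21.5 and 23.3 FPKM to 16.4, 16 and 14.9 FPKM. Dhh, the hedgehog ligand that Schwann cells send to the perineurium, rose 1.21-fold. In the Wnt pathway the receptors Fzd7 (1.37-fold) and Lgr4 (1.3-fold) fell and 0 of 59 rose, while 17 members had all old libraries above the young, against 18.4% of all genes. Wnt6, a ligand, was at 5.5, 5.02 and 5.42 FPKM and 6.8, 8.58 and 6.95 FPKM (adjusted p = 0.0559). Of 44 genes of FGF, PDGF and VEGF signalling the receptor Fgfr3 (2.23-fold, to at most 0.947 FPKM) and Vegfb (1.31-fold) rose and Fgf12, which binds sodium channels inside neurons, fell 1.24-fold. None of the 26 genes of insulin-like growth factors and insulin signalling was called. Igf1 was at 1.35, 1.06 and 1.53 FPKM in the young and 0.824, 1.22 and 0.823 FPKM in the old libraries (adjusted p = 0.2), and its binding protein Igfbp5 at 40.5, 24.5 and 27.6 FPKM and 32.2, 43.3 and 49.2 FPKM (adjusted p = 0.266). Of 21 imprinted genes 13 were negative and 1 was called: Rian, a noncoding RNA of the Dlk1-Meg3 cluster, fell 1.36-fold, from 19.7, 17.4 and 20.6 FPKM to 14.7, 14.1 and 13.6 FPKM (adjusted p = 0.0253, kept in 5 of 9). Its neighbour Meg3 was at 6.81, 8.32 and 9.13 FPKM and 7.15, 4.97 and 5.06 FPKM, with overlap.

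Retinoic acid, a signal made from vitamin A, is removed by the CYP26 enzymes. Cyp26b1 (chromosome 6, 84571414 to 84593908, minus strand) was at 1.22, 0.896 and 0.998 FPKM in the young and 2.07, 2.03 and 2.47 FPKM in the old libraries, a 2.02-fold rise without overlap (adjusted p = 0.0236, kept in 5 of 9). It was the 1 called of 25 genes of that pathway. The receptor gene Rarg was at 7.22, 8.18 and 8.04 FPKM and 9.15, 9.45 and 9.54 FPKM (adjusted p = 0.0602), and the synthesis gene Aldh1a1 overlapped, at 11.3, 7.72 and 10.6 FPKM and 10.2, 10.3 and 10.7 FPKM.

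Calls among lysosomal genes were all higher: 49 of 60 had a positive log2 change, 27 had all old libraries above all young ones (18.4% of all genes did), and 6 were called, against 2.62% of all genes. The median log2 change was 0.22, and 0.17 with equal library medians, where 3 were higher and 0 lower. Ctsd, cathepsin D, the main aspartic protease of the lysosome (chromosome 7, 142375911 to 142388038, minus strand), went from 333, 355 and 309.8 FPKM to 445, 440.5 and 452 FPKM. The old libraries were close to each other and above every young one (log2 change 0.43, SE 0.066, adjusted p = 0.0224, kept in 5 of 9). Arsa, arylsulfatase A, which degrades the myelin lipid sulfatide (chromosome 15, 89472476 to 89477425, minus strand), went from 8.18, 8.5 and 8.79 FPKM to 10.5, 11.2 and 11.2 FPKM (log2 change 0.37, SE 0.061, adjusted p = 0.0269, kept in 5 of 9). Atp6v0d1, a subunit of the proton pump, rose 1.2-fold (119.5, 122 and 117 FPKM to 141, 142 and 148 FPKM), Grn, progranulin, 1.39-fold (15.8, 16 and 14.7 FPKM to 17.8, 23.1 and 24.2 FPKM), Gaa, which degrades glycogen, 1.3-fold, and Smpd1, which degrades sphingomyelin, 1.17-fold. Without old sham replicate 1 the list had 9 higher and 0 lower, with 4 of these 6 kept. Without young sham replicate 1 or 3 or old sham replicate 2 or 3, 0 of the 6 stayed called. Phagocytes express many of these genes strongly, and the macrophage markers moved with the groups as given above. Their part in these rises was not tested.

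The promoter windows of 3 of the 6 called lysosomal genes, those with a match, are shown because a set of lysosomal genes carries the CLEAR element, the site of the factor TFEB, whose core is an E-box. The letters TCACGTG, on either strand, were searched in the 250 bases before the start of each gene (RefSeq, GRCm38.p6). Where a gene had several RefSeq starts, the start nearest its annotated 5′ end was used, and it can differ from that end. A window was found for 11433 of 16204 autosomal symbols, and 4.65% of them held the letters, against 10 of the 46 lysosomal windows (21.7%). The shorter palindrome CACGTG, which overlaps it, was in 8.08% of all and 26.1% of the lysosomal windows. Of the 6 called genes Ctsd, Gaa and Arsa held TCACGTG, and Smpd1, Grn and Atp6v0d1 did not. The 3 windows with a match are printed 5′ to 3′ along the gene with the match, on either strand, in capitals. The Ctsd window (chr7:142387828-142388077, minus strand) held it 245 and 99 bases before the start, with the second also matched on the opposite strand, the Gaa window (chr11:119267713-119267962, plus strand) 141 bases before the start, and the Arsa window (chr15:89477425-89477674, minus strand) 17 bases before it. The span of Ctsd given above reaches into its window, so the match 99 bases before the RefSeq start lies within that span. A match describes the letters and is no measured site.
Ctsd: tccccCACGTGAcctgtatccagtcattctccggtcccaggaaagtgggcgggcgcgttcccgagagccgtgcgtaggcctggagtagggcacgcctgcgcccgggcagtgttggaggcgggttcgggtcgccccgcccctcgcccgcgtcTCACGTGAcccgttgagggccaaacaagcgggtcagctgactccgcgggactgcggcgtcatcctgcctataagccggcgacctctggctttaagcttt
Gaa: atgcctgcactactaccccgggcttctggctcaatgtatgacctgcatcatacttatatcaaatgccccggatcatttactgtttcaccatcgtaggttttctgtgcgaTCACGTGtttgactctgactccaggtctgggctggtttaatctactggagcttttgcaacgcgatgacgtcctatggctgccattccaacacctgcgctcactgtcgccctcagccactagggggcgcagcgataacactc
Arsa: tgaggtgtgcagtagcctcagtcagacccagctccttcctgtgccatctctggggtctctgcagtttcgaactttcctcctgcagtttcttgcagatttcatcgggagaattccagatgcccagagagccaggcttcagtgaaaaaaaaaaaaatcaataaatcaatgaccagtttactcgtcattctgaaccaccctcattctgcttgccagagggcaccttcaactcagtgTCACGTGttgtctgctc

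Calls among cytosolic chaperones were all lower: 3 of 48 were lower and 0 higher, against 1.43% and 2.62% of all autosomal genes. In 14 of the 48 all old libraries lay below all young ones, against 11.2% of all genes. Hsp90aa1, the stress-inducible HSP90 (chromosome 12, 110690605 to 110702728, minus strand), went from 147, 137 and 166 FPKM to 106, 108 and 103 FPKM (log2 change -0.51, SE 0.083, adjusted p = 0.0253, kept in 5 of 9). The old injury libraries were at 117, 116 and 100.4 FPKM. Dnaja1, a co-chaperone of HSP70, fell 1.53-fold, from 20.7, 18.9 and 22.3 FPKM to 14, 15.2 and 11.2 FPKM, and Hsph1, an HSP110 exchange factor, 1.24-fold, from 46.8, 40.3 and 46.3 FPKM to 33.7, 37.3 and 36.9 FPKM. Dnaja1 and Hsph1 were each kept in 1 of 9 fits. The median of the list was -0.02. With equal medians 6 were lower and 0 higher, and without old sham replicate 1 there were 1 lower and 1 higher. The promoters of Dnaja1 and Hsph1 are shown for the heat shock element, and that of Hsp90aa1 was not analysed here. The element is the site of HSF1 and is made of inverted GAA and TTC units. The letters GAANNTTC or TTCNNGAA, which read the same on both strands, were in 10.3% of all windows and in 10 of the 39 chaperone windows (25.6%). Dnaja1 (chr4:40722218-40722467, plus strand) held GAANNTTC 124 bases before the start and Hsph1 (chr5:149636337-149636586, minus strand) TTCNNGAA 33 bases before it, in capitals here.
Dnaja1: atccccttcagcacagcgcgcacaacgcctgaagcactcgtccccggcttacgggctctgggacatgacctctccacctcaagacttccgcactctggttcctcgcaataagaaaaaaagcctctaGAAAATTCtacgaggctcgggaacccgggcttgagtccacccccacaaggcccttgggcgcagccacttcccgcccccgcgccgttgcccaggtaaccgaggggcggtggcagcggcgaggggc
Hsph1: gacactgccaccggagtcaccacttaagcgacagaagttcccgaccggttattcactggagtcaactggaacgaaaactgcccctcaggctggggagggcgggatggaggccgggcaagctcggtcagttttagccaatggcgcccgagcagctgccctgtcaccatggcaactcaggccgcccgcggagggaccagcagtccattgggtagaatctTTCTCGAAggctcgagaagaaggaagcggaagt

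**Figure D5:**
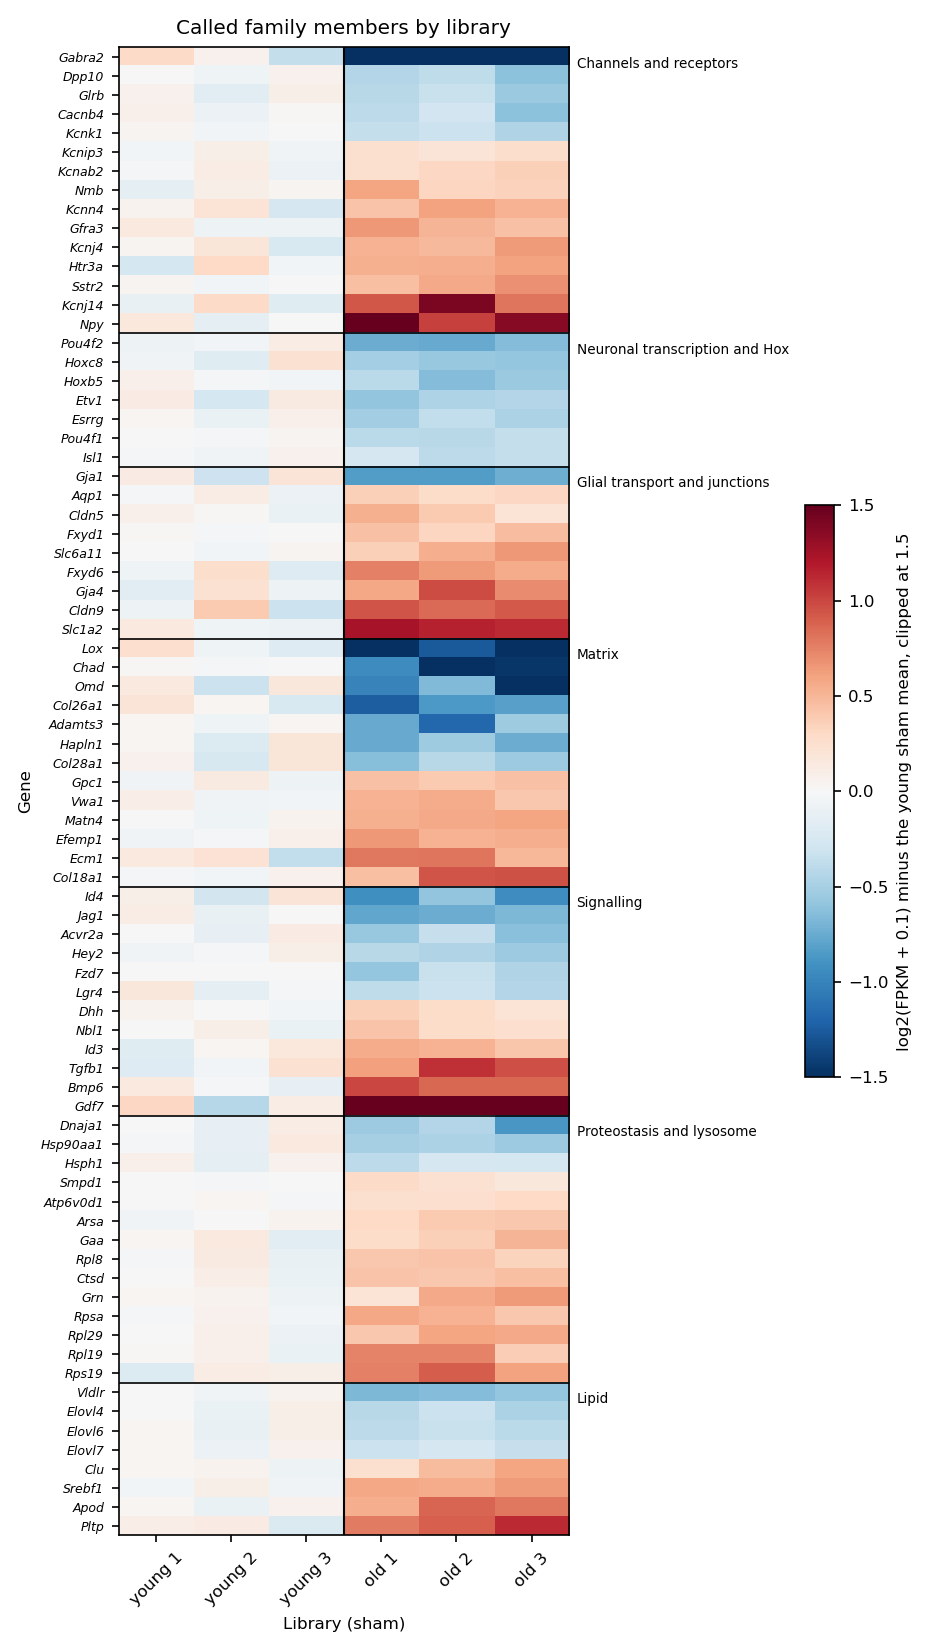
Called members of a chosen part of the described families in each of the 6 sham libraries. Colour gives log2(FPKM + 0.1) minus the young sham mean of the gene, from blue (lower) to red (higher) and clipped at 1.5, with columns for libraries and rows for genes grouped by role. The called lysosomal and ribosomal genes are red and the 3 called chaperones blue in all 3 old libraries. Only called members are drawn, so the choice favoured a clear direction.

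Other parts of protein turnover differed in few members. Of 81 cytosolic ribosomal protein genes 5 were higher and 0 lower, against 2.62% and 1.43% of all autosomal genes. In 20 all old libraries lay above all young ones (18.4% of all genes did). The median log2 change was 0.15, against 0.05 over all autosomal genes, and 58 were positive. Rpl8 went from 223, 251 and 211 FPKM to 302, 308 and 288 FPKM (1.31-fold, adjusted p = 0.0367, kept in 1 of 9). Rpl29 (1.44-fold), Rpsa (1.41-fold), Rps19 (1.69-fold) and Rpl19 (1.54-fold) were the others. Ribosomal proteins have many near-identical pseudogenes that can take or lend reads, and Rpl19 stood at only 3.64, 3.78 and 3.33 FPKM in the young libraries, so these values are uncertain. None of the 36 proteasome subunits was called. Of 42 autophagy genes Map1lc3b, the LC3 protein of autophagosomes, rose 1.18-fold, from 54.1, 56.2 and 52.9 FPKM to 64.7, 65 and 62 FPKM. In the stress response of the endoplasmic reticulum Phgdh, which starts serine synthesis and is induced by ATF4, rose 1.6-fold (3.36, 3.62 and 3.24 FPKM to 5.91, 5.8 and 4.9 FPKM, adjusted p = 0.0167, kept in 6 of 9). Herpud1 rose 1.25-fold, and Vldlr, a lipoprotein receptor in the same list, fell 1.55-fold (5.63, 5.41 and 5.84 FPKM to 3.5, 3.54 and 3.73 FPKM, adjusted p = 0.0167, kept in 5 of 9).

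Genes of lipid transport and synthesis were called in both directions. Of 39 genes of lipoprotein and lipid transport 3 were higher and 1, Vldlr, lower, against 2.62% and 1.43% of all autosomal genes. Pltp, which moves phospholipids between lipoproteins, went from 5.03, 5.12 and 4.02 FPKM to 8.13, 8.85 and 10.3 FPKM (1.91-fold, adjusted p = 0.0112, kept in 7 of 9). Apod, an apolipoprotein of glia and fibroblasts, rose 1.67-fold, from 422, 385 and 432 FPKM to 604, 755 and 713 FPKM, and Clu, clusterin, 1.36-fold, from 106, 107 and 98.1 FPKM to 123, 145 and 157 FPKM. All 3 stayed called without old sham replicate 1. Srebf1, the factor that drives fatty acid synthesis (chromosome 11, 60199089 to 60222581, minus strand), was at 10.7, 11.7 and 10.6 FPKM in the young and 16.4, 16.2 and 17.2 FPKM in the old libraries (1.5-fold, adjusted p = 0.00815, kept in all 9 fits). It was the 1 higher of 42 genes of fatty acid and triglyceride synthesis, against 3 lower, and the median of that list was 0.06. The lower members were elongases: Elovl4, from 27.6, 25.7 and 29.2 FPKM to 20.5, 21.9 and 19.7 FPKM, Elovl6, from 27.1, 24.4 and 28.1 FPKM to 20.1, 20.9 and 20.0 FPKM, and Elovl7, from 57, 52.3 and 58.1 FPKM to 44.6, 46.8 and 43.9 FPKM. Their log2 changes were -0.41, -0.38 and -0.31. These enzymes lengthen the fatty acids of membranes, myelin among them, and the myelinating Schwann cell markers moved with them as given above. Their part was not tested. Of 49 genes of fatty acid oxidation 0 were called. Ppargc1a, which drives mitochondrial genes, was at 6.01, 5.46 and 6.33 FPKM and 4.06, 4.62 and 4.92 FPKM, without overlap (adjusted p = 0.0538).

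Energy and redox genes held few calls. Of 81 subunits of oxidative phosphorylation 3 were higher and 1 lower, against 2.62% and 1.43% of all autosomal genes. Cox4i2, a cytochrome oxidase subunit of vessels and lung, rose 2.15-fold, from 0.962, 1.43 and 0.909 FPKM to 2.17, 2.96 and 2.27 FPKM, Ndufa11 1.34-fold and Sdhc 1.18-fold. The lower one, Atp5g2, was under 1 FPKM in all libraries, was listed at 0 in old sham replicate 3 and has near-identical copies, so it is uncertain. Of 39 genes of sugar use Aldoc, the brain aldolase, rose 1.32-fold and Pygl, a glycogen phosphorylase, 1.26-fold. Gstt1, a glutathione transferase, went from 7.35, 8.53 and 6.98 FPKM to 11.5, 12.3 and 12.2 FPKM (1.57-fold, adjusted p = 0.0167, kept in 5 of 9) and was the 1 called of 59 antioxidant genes. In iron handling Slc11a1, an iron pump of phagosomes (1.92-fold), Steap3, an iron reductase (1.26-fold), and Lcn2, a neutrophil and stress protein that binds iron carriers (2.82-fold), rose, and Cybrd1, an iron reductase of the membrane, fell 1.5-fold, 4 of 25 in all. Slc11a1 and Lcn2 are genes of phagocytes and moved beside their markers.

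Among genes of senescence and growth control, Cdkn2a, the locus of p16 and p19 (chromosome 4, 89274471 to 89294653, minus strand), was at 1.69, 1.99 and 1.07 FPKM in the young and 4.32, 4.67 and 3.52 FPKM in the old libraries (2.59-fold, kept in 5 of 9 fits). It and Pmaip1, the p53 target Noxa, were the 2 higher of 40 genes of p53 and senescence, with 0 lower. Over all autosomal genes 2.62% were called higher and 1.43% lower. Of the 40 genes 24 were positive and 16 negative, with a median log2 change of 0.12, and 0.02 without old sham replicate 1. Pmaip1 went from 1.55, 1.79 and 1.19 FPKM to 3.08, 3.12 and 2.58 FPKM (1.9-fold, adjusted p = 0.0234, kept in 4 of 9), and the old injury libraries were at 6.6, 5.9 and 6.39 FPKM. Cbx7, a Polycomb protein known to hold the Cdkn2a locus silent, rose 1.34-fold, from 4.47, 4.7 and 4.29 FPKM to 6.01, 6.16 and 6.01 FPKM (adjusted p = 0.0337). So Cdkn2a and Cbx7 were both higher in old ganglia, and 1 of 32 genes of DNA methylation and Polycomb was called. Of 46 proliferation genes 36 were positive (median 0.27) and Ccnd1, cyclin D1, rose 1.36-fold, from 10.3, 8.14 and 9.46 FPKM to 11.8, 13.4 and 12.7 FPKM. Among 32 immediate early genes Nr4a1 (1.23-fold) and Ier5 (1.61-fold) rose. Star, which feeds cholesterol into steroid synthesis, rose 1.53-fold, from 2.37, 2.05 and 2.02 FPKM to 3.46, 3.38 and 3.15 FPKM, with 6.29, 4.82 and 6.96 FPKM after injury. None of the 24 clock genes was called.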

How the data were processed

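The deposited table holds FPKM for 45904 identifiers in 9 libraries, and columns were matched to samples by their names. The authors' FPKM are fragments per kilobase scaled to library depth, per the file headers and values. The submitters' processing notes list the genome build mm10 and, with no role given for any, Bowtie2 2.2.3, TopHat2 2.0.12, HTSeq 0.6.0, limma 3.22.7, edgeR 3.8.6, FastQC 0.10.1, SAMtools 0.1.19 and R 3.1.1. The annotation release and the use of strand are not given in the sources, so overlapping genes can share reads. Libraries were paired-end TruSeq mRNA libraries, per the labels' protocols.

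Values were analysed as log2(FPKM + 0.1), which understates the change of low genes. Genes averaging 0.2 FPKM or more over the 9 libraries entered a limma 3.58.1 fit (R 4.3.3) with a variance trend, all 3 groups in 1 fit and a two-sided contrast of old against young sham. P-values were adjusted over all 17601 genes by the Benjamini-Hochberg method, and 0.05 was the threshold. Positions were found for 16845 of them, and 16206 were autosomal. Absolute depth is unknown.

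Named were 15 rises and 15 falls, taken by size from called genes averaging 1 FPKM or more in the sham libraries, without overlap and outside predicted, immune, blood and myelin genes, up to 4 members of each family by p, and all retinoic acid, insulin-like growth factor and substrain genes. Other called members were named to complete the counts after their values were seen, as were genes named as not called. Members and lists were chosen with earlier results of these data known. Families are described by counts and medians, with no test of a list. Levels of old injury libraries are given without a comparison. The scripts were tested on simulated data. Alternatives changed the scaling, pseudocount, filter, variance model, covariates and libraries. Some items are not reported here.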

Additional observations from a re-analysis of the deposited data

How the results depend on the processing

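With the main settings 655 autosomal genes were called. The count was 1882 with array weights, 221 without a filter on low values, 89 without a variance trend, 25 with the 6 sham libraries alone and 3 with the Y-linked share as a covariate, and the cause of these differences was not tested. Leaving out each library in turn gave between 18 and 1439 calls. With a replicate block the count was 90. The replicate numbers did not pair the libraries: same-numbered libraries had correlations of -0.03, -0.07 and -0.05 between their deviations from the group means, so a call lost under the block is not described as a weaker effect. With equal library medians 753 genes were called (269 higher and 484 lower), and with quantile normalization 824 (370 higher and 454 lower). Of the 271 named genes, 0 changed direction under any of these settings while called. Of the 122 named genes that were called, 101 were kept with equal medians, 113 with quantile normalization, 66 without old sham replicate 1, 27 with the block, 6 with the sham libraries alone and 2 with the covariate. FPKM hold no counts, so the depth behind single low values is not known, and values near 0.2 FPKM carry little weight.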

Other observations

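The 13 autosomal genes whose call was kept whichever library was left out were not of 1 family. Beside EU599041, Lgals3, Tyrp1, Gabra2, Ednrb, Entpd2 and Srebf1 they included Cmtm7, a 4-span membrane protein of lymphocytes and epithelia, at 2.67, 2.48 and 2.6 FPKM in the young and 4.72, 5.84 and 5.67 FPKM in the old libraries (log2 change 1.03, limma adjusted p = 0.00454). Ptk2b, the calcium-activated kinase Pyk2 of neurons and macrophages, went from 4.75, 4.61 and 4.38 FPKM to 7.27, 7.75 and 7.8 FPKM (log2 change 0.72, limma adjusted p = 0.00712). Nexn, the actin-binding protein nexilin, went from 18.6, 19.8 and 21.6 FPKM to 12.8, 12 and 13.7 FPKM (log2 change -0.63, limma adjusted p = 0.00978). The groups did not overlap in any of these genes. The remaining ones were the clone 9130204L05Rik, the predicted gene Gm15433 and Mirlet7b, a micro RNA precursor that a library of this kind measures poorly. These genes were chosen after their values were seen.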
